A study of Homo sapiens with 6 samples.

Results

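Integrins and the cytoplasmic proteins that gather on them at focal adhesions were described in RNA-seq libraries of Huh7, a human hepatocellular carcinoma line. The 48 genes were chosen by symbol among the 60623 rows of the deposited table, and each symbol matched 1 row. They comprise 17 alpha subunits, 8 beta subunits and 23 genes of talins, kindlins, adaptors, kinases and actin linkers. The controls, whose genotype is given as WT, and the cells with less SRSF10, an SR-like regulator of splicing, had 3 libraries each. The title of the series writes the knockdown as shSRSF10, a short hairpin RNA. Whether control cells received a hairpin of their own is not in the labels, so what a hairpin or its transfer does cannot be told apart from lower SRSF10. Nothing in the labels shows that replicates were separate cultures, and the p-values then cover only the spread among these libraries, which may be technical.

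An integrin is a pair of an alpha and a beta subunit that spans the plasma membrane. Its outer part binds matrix proteins such as laminin, collagen or fibronectin, or proteins of other cells, and the choice of subunits sets which ligand is bound. Talins and kindlins bind the tails of beta subunits and switch the receptor to its active state. Paxillin, vinculin, alpha-actinins, filamin and tensins then connect it to actin, and the kinases FAK and SRC pass on signals. The levels are FPKM (fragments scaled to gene length and to the mapped fragments of the library), which can be compared between genes. They are levels of whole-gene RNA, and neither splice isoforms nor protein pairs on the surface were measured.

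Depth, estimated from the steps between low FPKM values, was 12680000 to 14340000 fragments per library, and Pearson's r of log2 values across genes, which are not independent replicates, was 0.986 to 0.988 for libraries of the same group and 0.971 to 0.976 for libraries of different groups. SRSF10 measured 18.6, 19.5 and 19.8 FPKM in control libraries and 10.6, 10.8 and 10.6 FPKM in knockdown libraries, a mean 44.8% below the controls (exact two-sided permutation p = 0.1, the smallest that 3 against 3 allows). Few hepatocyte markers reached 1 FPKM, although the line is a liver tumour line. Of 10 hepatocyte genes HNF4A and FGB reached 1 FPKM in every library, and TTR and APOA2 were listed at 0 in all 6. ALB was at 0.115 to 0.172 FPKM in controls and 0.434 to 0.814 FPKM in the knockdown, and SERPINA1 at 0.0753 to 0.144 and 0.539 to 0.674 FPKM. APOB was at 0.535 to 0.663 FPKM in controls and 0.307 to 0.472 FPKM in the knockdown. Over all 6 libraries AFP was at 0.669 to 0.958 FPKM, TF at 0.133 to 0.291 FPKM and APOA1 at or below 0.11 FPKM. The identity of the line was not tested. Of 5 epithelial genes the keratins KRT8, KRT18 and KRT19 were abundant, with KRT8 at 422 to 465 FPKM. The other epithelial genes were low, with CDH1 at 1.5 to 2.31 FPKM and EPCAM at 0.085 to 0.304 FPKM over all 6 libraries. Summed markers of 3 other cell types did not overlap between the groups. The 7 fibroblast genes summed to 4.18 to 5.24 FPKM in controls and 9.57 to 10.6 FPKM in the knockdown, and 1 of them passed, LUM, at 4.03 to 5.11 and 8.75 to 10 FPKM. COL3A1 (0.0408 to 0.0867 and 0.345 to 0.442 FPKM), DCN (0.00554 to 0.0376 and 0.102 to 0.25 FPKM) and COL1A1 (0 to 0.0142 and 0.0718 to 0.172 FPKM) were also higher in every knockdown library, at low levels, and COL1A2 and PDGFRB did not exceed 0.022 FPKM. The 5 endothelial genes summed to 5.49 to 6.17 and 9.56 to 10.8 FPKM, of which PECAM1 and KDR passed, and CDH5 did not exceed 0.047 FPKM. KDR, at 0.318 to 0.815 and 2.62 to 3.46 FPKM, was tested through the knockdown libraries alone, so it had to be higher to be tested. The 8 leukocyte genes, none of which passed the filter for testing, summed to 0.191 to 0.265 and 0.418 to 0.517 FPKM, with CD48 listed at 0 in all 6. The 5 platelet genes overlapped, at 0.721 to 1.1 and 1.03 to 1.18 FPKM, with PPBP and GP9 listed at 0. Their part in the results was not tested, and in bulk RNA fewer cells of a type and less RNA per cell cannot be told apart.

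These cells held transcripts for both subunits of 9 of the 24 known integrin pairs at 1 FPKM or more in all 6 libraries. Of these, 7 were pairs of ITGB1, the beta subunit with the most partners, joined to ITGA2, ITGA3, ITGA5, ITGA6, ITGA7, ITGA11 or ITGAV. The others were ITGAV with ITGB5, a vitronectin receptor, and ITGA6 with ITGB4, the laminin receptor of hemidesmosomes. In the knockdown libraries alone 12 pairs met the same level. The 3 added were ITGA1 with ITGB1, a collagen receptor, ITGA10 with ITGB1, also a collagen receptor, and ITGAV with ITGB3, a receptor for vitronectin and other RGD ligands. The transcript that fell short in the controls was ITGA1, ITGA10 or ITGB3, and the partner was far above 1 FPKM in each case. ITGA10 crossed the level through 1 library, with control levels of 1.35, 0.92 and 1.21 FPKM, and without control replicate 2 the count over both groups was 10. The ITGA10 pair also met 1 FPKM in both groups by group means, and in all 6 libraries after rescaling without mitochondrially encoded genes. At a level of 0.5 FPKM the pairs of ITGA1 and ITGA10 were present in all 6 libraries. The pair of ITGAV and ITGB3 was not, with ITGB3 at 0.353 FPKM in control replicate 3. The remaining 12 pairs reached the level in neither group.

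**Figure D1:**
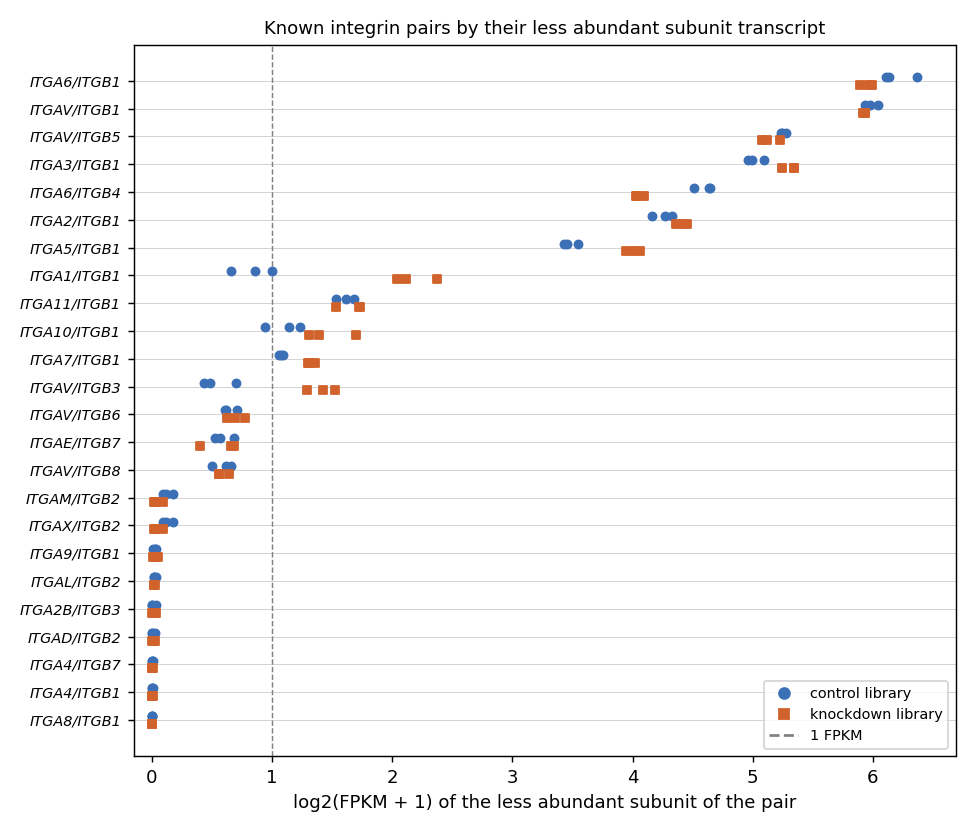
Each row is 1 of 24 known integrin pairs, placed by log2(FPKM + 1) of whichever subunit transcript is less abundant in a library; points are the 3 control and 3 knockdown libraries and the dashed line is 1 FPKM. ITGA1/ITGB1 and ITGAV/ITGB3 sit left of the line in every control and right of it in every knockdown library, and 7 pairs lie at 5 FPKM or more in all 6.

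Pairs typical of blood cells lacked a subunit. ITGB2, the beta subunit of leukocyte integrins, was at 0.132, 0.0687 and 0.086 FPKM in control libraries and 0.0208, 0.0107 and 0.0684 FPKM in the knockdown. Its partner ITGAM was nevertheless present, at 1.2, 0.885 and 1.19 FPKM in control libraries and 1.54, 2.01 and 1.62 FPKM in the knockdown. ITGAL stayed at or below 0.0446 FPKM and ITGAX at or below 0.606 FPKM. ITGA2B, the platelet fibrinogen receptor subunit, was at or below 0.0276 FPKM, and ITGA4, which pairs with ITGB1 or ITGB7 on leukocytes, at or below 0.00735 FPKM. ITGA8 was listed at 0 in all 6 libraries and ITGA9 did not exceed 0.0345 FPKM. ITGAE was present at 1.45 to 1.74 FPKM, while ITGB7, its only known partner, was at 0.321 to 0.611 FPKM. Exons of ITGB7 share 42.1% of their length with ZNF740 in the annotation used, so its reads are uncertain. ITGB6 (0.529 to 0.717 FPKM) and ITGB8 (0.415 to 0.58 FPKM), which join ITGAV to activate latent TGF-beta, stayed below 1 FPKM in every library. ITGAD, the alpha subunit of the remaining pair and not among the 48 genes, was at or below 0.0179 FPKM.

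**Figure D2:**
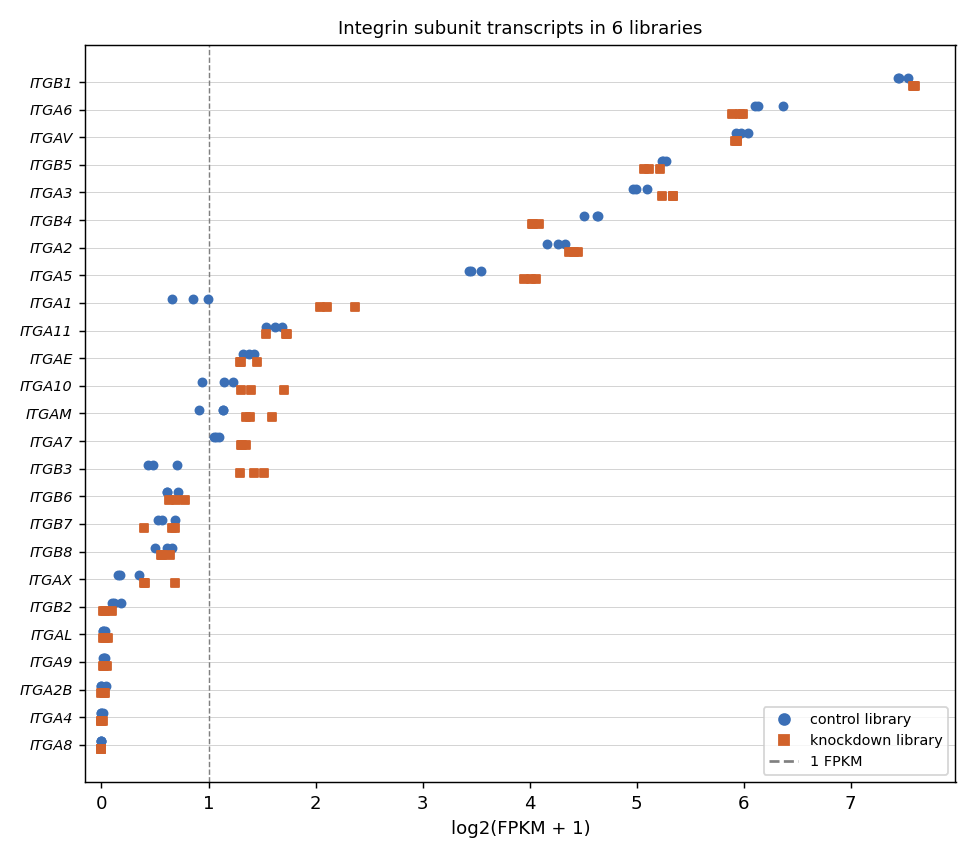
Log2(FPKM + 1) of the 25 integrin subunits, ordered by mean level, with 1 point per library (circles for control, squares for knockdown) and a dashed line at 1 FPKM. ITGB1 lies highest, ITGA6 and ITGAV follow, and 10 subunits reached 1 FPKM in too few libraries to be tested.

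Of the 48 genes 34 passed the filter for testing, which asked for 1 FPKM in at least 3 libraries, and 30 were at 1 FPKM or more in all 6. Among the 34, 14 were higher in the knockdown and 4 were lower (limma, Benjamini-Hochberg adjusted p under 0.05). Over all 12191 genes tested 12.6% were higher, 12.5% lower and 25.2% either. Abundant genes can pass more readily, so the same shares were taken among genes with a mean of at least 5 FPKM, where 14.1% were higher, 17.3% lower and 31.4% either. At that level 10 of 24 members were higher and 4 lower. The median log2 fold change was 0.13 over the 34 and -0.01 over all genes tested. The members were chosen with earlier results of these data known, so these counts describe the list and test nothing. ITGA1 and ITGB3 were under 1 FPKM in every control and passed the filter through the knockdown libraries alone, so both had to be higher to be tested. The count of higher members depended on single libraries. It was 8, 9 and 13 without control replicate 1, 2 or 3 and 8, 9 and 7 without knockdown replicate 1, 2 or 3, and the count of lower members was 2 to 4. The 9 that passed under every alternative in which they were tested were ITGA1, ITGA3, ITGA5, ITGB3, PXN, TNS3 and ACTN1, higher, and ITGB4 and FERMT1, lower.

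**Figure D3:**
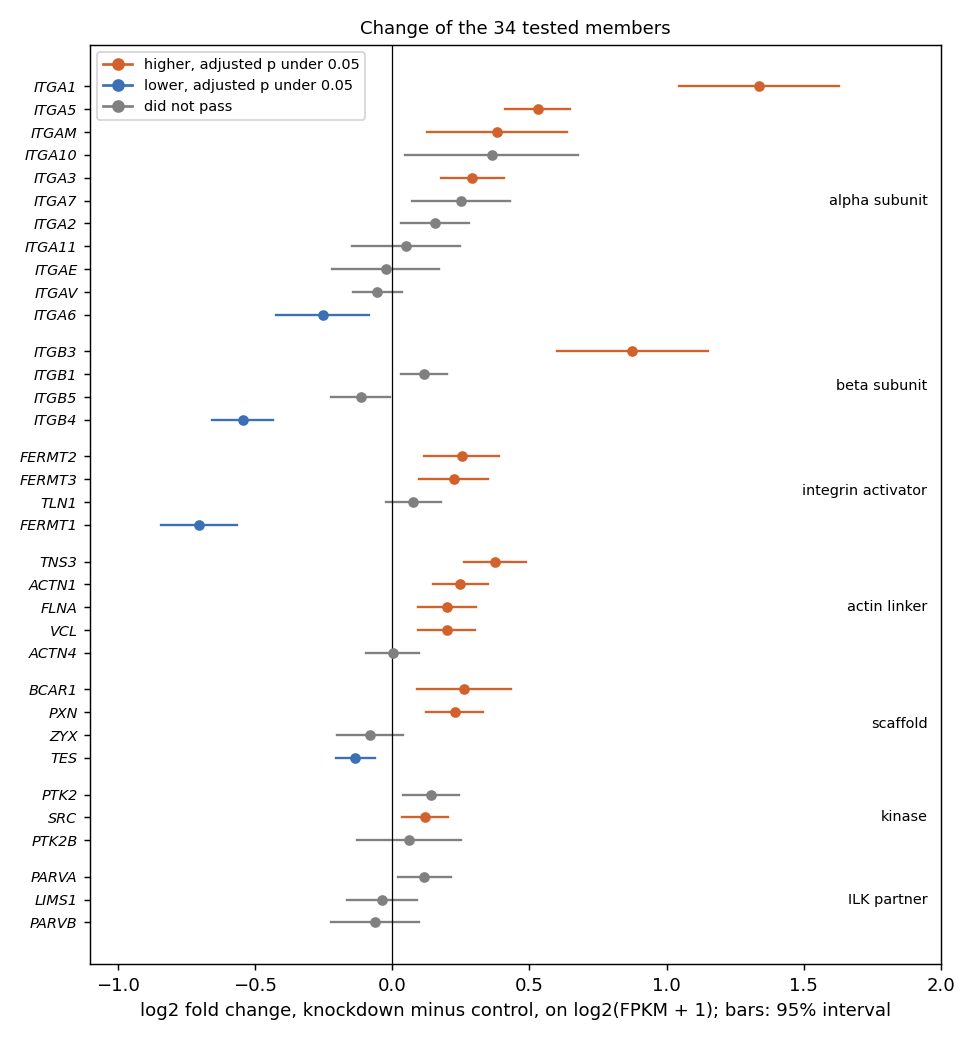
Log2 fold changes (knockdown minus control, on the log2(FPKM + 1) scale) of the 34 tested members with 95% intervals, grouped by role and coloured by whether the adjusted p was under 0.05. ITGA1 is farthest to the right at 1.34 and FERMT1 farthest to the left at -0.70, and the actin linkers other than ACTN4 lie right of 0.

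Among alpha subunits, 4 of 11 tested rose (36.4%) and 1 fell (9.09%), beside 12.6% and 12.5% of all genes tested. ITGA1 is among the 4 and, as given above, had to be higher to be tested. At a mean of at least 5 FPKM 2 of 5 rose and 1 fell, beside 14.1% and 17.3% of all genes at that level. The collagen receptor subunit ITGA1 changed most. ITGA1 (ENSG00000213949, GRCh38 chromosome 5, 52787896 to 52959210, plus strand) was at 0.814, 0.581 and 0.995 FPKM in control libraries and 4.17, 3.12 and 3.32 FPKM in the knockdown. No knockdown library came near a control library, and the mean was 4.44 times as high (limma log2 fold change 1.34, SE 0.123, adjusted p = 0.000918). The exons of ITGA1 share 6.9% of their length with other genes, among them PELO, whose means were 6.66 ± 0.235 and 7.27 ± 0.43 FPKM (SD, n = 3 per group). The fibronectin receptor subunit ITGA5 (ENSG00000161638, chromosome 12, 54395261 to 54419460, minus strand) had control levels of 10.7, 9.78 and 9.97 FPKM and knockdown levels of 14.5, 15.7 and 15.1 FPKM. Its lowest knockdown library was above its highest control library (limma log2 fold change 0.53, SE 0.0496, adjusted p = 0.000933). ITGA3, which binds laminin, was at 30.2, 30.9 and 33.1 FPKM in control libraries and 36.9, 39.6 and 39.5 FPKM in the knockdown (limma log2 fold change 0.29, SE 0.0482, adjusted p = 0.00648). ITGAM also rose (log2 fold change 0.38, limma adjusted p = 0.0415), with 64 to 155 estimated fragments per library. The ITGAM call was lost without any 1 control library (adjusted p = 0.0716, 0.102 and 0.0624 without replicate 1, 2 and 3) and without any 1 knockdown library (0.066, 0.124 and 0.0849). It was also lost with no filter or a replicate block (limma adjusted p = 0.126 and 0.0996).

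Sequence before the RefSeq starts (GRCh38.p14) of 3 alpha subunits is printed because, of the 13 members that passed and have a window in that table, ITGA1 and ITGA5 rose most and ITGA6 fell most. ITGB3, ITGB4 and FERMT1, with larger changes than ITGA5 or ITGA6, are among the other 5 of the 18 that passed. The window searched is the 250 bases before the RefSeq start on the gene's strand. It reaches 20 bases into the GENCODE span of ITGA1 and 194 bases into that of ITGA5, and only the bases outside those spans are printed, 5′ to 3′. These are chr5:52787666-52787895 (plus, 230 bases) for ITGA1, chr12:54419461-54419516 (minus, 56 bases) for ITGA5 and chr2:172427086-172427335 (plus) for ITGA6, whose first listed start was used out of 2. Capitals mark 4 motifs searched on both strands: TGACTCA or TGAGTCA (AP-1), GGGCGG (SP1), GGAATG (TEAD) and CACGTG (E-box).
ITGA1: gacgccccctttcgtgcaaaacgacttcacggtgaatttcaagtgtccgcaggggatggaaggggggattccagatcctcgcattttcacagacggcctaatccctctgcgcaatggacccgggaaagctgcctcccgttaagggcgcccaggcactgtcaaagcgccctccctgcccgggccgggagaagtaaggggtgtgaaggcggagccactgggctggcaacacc
ITGA5: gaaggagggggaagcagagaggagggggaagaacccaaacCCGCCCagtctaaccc
ITGA6: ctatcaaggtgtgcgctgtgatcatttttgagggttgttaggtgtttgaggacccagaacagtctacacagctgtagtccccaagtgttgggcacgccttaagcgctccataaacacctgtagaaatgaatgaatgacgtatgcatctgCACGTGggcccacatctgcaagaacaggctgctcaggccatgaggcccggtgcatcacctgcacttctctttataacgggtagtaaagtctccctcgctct
The ITGA1 window holds none of these motifs. The ITGA5 window holds an SP1 motif, 210 to 205 bases before the RefSeq start. It also holds a TEAD motif, 82 to 77 bases before that start and so inside the GENCODE span. An AP-1 motif (TGAGTCA) lies across the ITGA5 RefSeq start, with 6 bases before the start and 1 from it, so the window does not count it. The ITGA6 window holds an E-box, 101 to 96 bases before the start used. Of 27305 windows of the same length, 1 per gene, 42.3% hold the SP1 motif, 11.9% the TEAD motif, 6.5% the E-box and 4.2% the AP-1 motif. Among the 34 members with a window the motifs are in 21, 4, 2 and 1. A match describes letters only and says nothing of a factor's binding.

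The alpha subunit with the highest mean level moved the other way. ITGA6, a laminin receptor subunit shared by ITGB1 and ITGB4, was at 68.05, 69.4 and 81.6 FPKM in control libraries and 62.8, 58.5 and 61.4 FPKM in the knockdown. Every knockdown library was below every control library, and the highest control library was replicate 3 (limma log2 fold change -0.25, SE 0.0718, adjusted p = 0.0424). ITGA6 no longer passed once control replicate 2 was left out (limma adjusted p = 0.0568), or knockdown replicate 1, 2 or 3 (0.0769, 0.124 and 0.101), and with no filter its adjusted p was 0.128. The call was also lost with rescaling without mitochondrially encoded genes, limma without a trend or a replicate block (adjusted p = 0.0519, 0.066 and 0.0504). In knockdown replicate 2 ITGAV was above ITGA6. ITGAV, the alpha subunit of vitronectin receptors, was at 61.9, 60.0 and 65.1 FPKM in control libraries and 60.2, 60.2 and 59.4 FPKM in the knockdown, and these groups overlapped (log2 fold change -0.05, 95% interval -0.14 to 0.03, limma adjusted p = 0.337). ITGA2, a collagen receptor subunit, was at 18.3, 16.9 and 19.1 FPKM in control libraries and 19.6, 20.9 and 20.4 FPKM in the knockdown (log2 fold change 0.16, 95% interval 0.03 to 0.28, limma adjusted p = 0.0682). The groups of ITGA2 did not overlap, and it did not pass. The share of all genes tested whose groups do not overlap was not counted.

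ITGA7, ITGA10, ITGA11 and ITGAE, all near 1 to 2 FPKM, did not pass. ITGA7, known as a laminin receptor of muscle, was at 1.1, 1.14 and 1.08 FPKM in control libraries and 1.56, 1.46 and 1.49 FPKM in the knockdown (log2 fold change 0.25, 95% interval 0.07 to 0.43, limma adjusted p = 0.0514). ITGA10 was at 2.25, 1.47 and 1.63 FPKM in the knockdown, where replicate 1 stood highest (log2 fold change 0.36, 95% interval 0.05 to 0.68, limma adjusted p = 0.0914). Both were higher in every knockdown library than in any control, which describes these libraries only. ITGA11, another collagen receptor subunit, was at 2.07, 2.215 and 1.9 FPKM in control libraries and 1.9, 2.32 and 2.3 FPKM in the knockdown, with overlapping groups (95% interval of the log2 fold change -0.15 to 0.25). ITGAE, at the level given above, also overlapped (95% interval -0.22 to 0.17).

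As shares of all alpha subunit FPKM, ITGA6 and ITGAV together made up 65.8% to 67.6% in the controls and 57.3% to 59.2% in the knockdown. ITGA6 alone went from 34.5% to 37.6% in the controls to 28.2% to 30.2% in the knockdown. ITGA3 was at 15.3% to 15.9% and 17.7% to 19.1%, ITGA5 at 4.59% to 5.42% and 6.95% to 7.58%, and ITGA1 at 0.299% to 0.458% and 1.51% to 2.01%. The 2 groups did not overlap in any of these shares. The sum over the 17 alpha subunits did overlap, at 195 to 217 FPKM in control libraries and 207 to 208 FPKM in the knockdown. The total in the knockdown lay within the range of the controls. Shares of the same total depend on each other, and the call of ITGA6 was not stable, as given above. The shares of ITGAV and ITGA2, which did not pass, did not overlap either. How often shares within other gene sets separate in this way was not counted. The level of ITGA3 relative to ITGA6, both laminin-binding, was 0.406 to 0.445 in the controls and 0.587 to 0.677 in the knockdown.

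Among beta subunits ITGB3 rose, ITGB4 fell and ITGB1 and ITGB5 did not pass. ITGB4 (ENSG00000132470, chromosome 17, 75721328 to 75757818, plus strand), which anchors hemidesmosomes to keratin filaments, was at 23.8, 21.8 and 24 FPKM in control libraries and 15.4, 15.3 and 16 FPKM in the knockdown. The groups lay far apart compared with their spread, and the mean in the knockdown was 0.672 of that in the controls (limma log2 fold change -0.54, SE 0.0468, adjusted p = 0.00076). ITGB3 (ENSG00000259207, chromosome 17, 47253846 to 47311816, plus strand) was at 0.396, 0.627 and 0.353 FPKM in control libraries and 1.45, 1.87 and 1.69 FPKM in the knockdown. Its lowest knockdown library was above its highest control (limma log2 fold change 0.87, SE 0.116, adjusted p = 0.00305), with 21 to 112 estimated fragments per library. Like ITGA1, ITGB3 had to be higher to be tested. Exons of ITGB3 share 51.6% of their length with AC068234.1, a protein-coding gene on the same strand, which was listed at 0 in all 6 libraries, so the level of ITGB3 is uncertain.

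ITGB1 was the most abundant integrin transcript, at 173.9, 173.5 and 185 FPKM in control libraries and 191, 192.6 and 193 FPKM in the knockdown. Every knockdown library was above every control library, by little (log2 fold change 0.11, 95% interval 0.03 to 0.20, limma adjusted p = 0.0539). ITGB1 made up 73.4% to 74.3% of beta subunit FPKM in control libraries and 77.5% to 78.9% in the knockdown, and ITGB4 9.32% to 10.1% and 6.27% to 6.44%. ITGB1 was at 0.864 to 0.905 of the summed level of its 12 known alpha partners in the controls and at 0.937 to 0.947 in the knockdown. ITGB5, the vitronectin receptor subunit, was at 36.9, 36.7 and 37.8 FPKM in control libraries and 33.7, 32.7 and 36.4 FPKM in the knockdown (log2 fold change -0.12, 95% interval -0.22 to -0.01, limma adjusted p = 0.11). ITGB5 lies on chromosome 3, where the median log2 fold change of 718 tested genes was -0.19, and the part of that chromosome in its value was not tested. On the chromosomes of ITGA1, ITGA5, ITGA6 and ITGB4 (5, 12, 2 and 17) those medians were between -0.02 and 0.01.

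The transcripts of hemidesmosome partners were counted because ITGA6 and ITGB4 form that junction. Of 9 tested genes 2 fell (22.2%) and 0 rose (limma adjusted p; at an unadjusted p under 0.05, 3 were lower and 1 higher), and without control replicate 3 the count that rose was 1. Among all genes with a mean of at least 5 FPKM, as 8 of the 9 had, 17.3% were lower, so the count itself is near the background. COL17A1, a transmembrane collagen of the junction, fell from 8.08 ± 0.37 to 5.11 ± 0.12 FPKM, and LAMB3, a chain of its laminin ligand, from 21.2 ± 2.6 to 12.4 ± 1.6 FPKM (SD, n = 3 per group; limma adjusted p = 0.000685 and 0.00473). The linker PLEC was at 116 ± 2.6 and 108 ± 4.0 FPKM (limma adjusted p = 0.0819), and DST at 17.2 ± 0.81 and 18.8 ± 0.31 FPKM (limma adjusted p = 0.0765).

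Of the proteins that activate integrins, the kindlins changed in opposite directions. FERMT1 (kindlin-1, chromosome 20, 6074845 to 6123544, minus strand), the kindlin of epithelia, was at 9.27, 9.54 and 9.79 FPKM in control libraries and 4.98, 5.74 and 5.68 FPKM in the knockdown. All knockdown libraries were far below all controls (limma log2 fold change -0.70, SE 0.0585, adjusted p = 0.000679). FERMT2 (kindlin-2), the widely expressed form, was at 2.95, 2.82 and 3.2 FPKM in control libraries and 3.81, 3.71 and 3.73 FPKM in the knockdown (limma log2 fold change 0.25, SE 0.0574, adjusted p = 0.02). FERMT3 (kindlin-3), known from blood cells, was the most abundant of the 3, at 45.3, 46.1 and 40.4 FPKM in control libraries and 50.6, 51.6 and 52.0 FPKM in the knockdown (limma log2 fold change 0.22, SE 0.0534, adjusted p = 0.0237). The defining leukocyte marker PTPRC did not exceed 0.0172 FPKM in any library, the summed leukocyte markers given above were higher in the knockdown, and their part in the values of FERMT3 and ITGAM was not tested. TRPT1, the only gene whose exons overlap those of FERMT3, shares 2.9% of their length and was at 2.64 ± 0.57 and 2.34 ± 0.18 FPKM (SD, n = 3 per group).

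The calls of FERMT2 and FERMT3 depended on single libraries. FERMT2 did not pass without control replicate 1 or 2 (adjusted p = 0.0595 and 0.0546) or without knockdown replicate 1, 2 or 3 (0.0669, 0.0597 and 0.0613). FERMT3 did not pass without knockdown replicate 1, 2 or 3 (0.058, 0.0715 and 0.0777). With no filter neither FERMT2 nor FERMT3 passed (limma adjusted p = 0.0535 and 0.0706), nor did FERMT2 with a replicate block (0.0527). FERMT1 made up 16.1% to 18.4% of kindlin FPKM in control libraries and 8.39% to 9.41% in the knockdown, and FERMT3 75.6% to 78.9% and 84.5% to 85.2%. TLN1, the main talin, was at 43.2, 41.6 and 39.1 FPKM in control libraries and 43.7, 43.1 and 43.9 FPKM in the knockdown, with overlapping groups (log2 fold change 0.08, 95% interval -0.02 to 0.18, limma adjusted p = 0.239). TLN2, the second talin, was at 0.214 to 0.372 FPKM and was not tested.

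Among actin linkers 4 of 5 tested genes rose and 0 fell by limma adjusted p, and the counts were also 4 and 0 at an unadjusted p under 0.05. All 5 had a mean of at least 5 FPKM, and of all genes at that level 14.1% were higher and 17.3% lower. TNS3, a tensin that binds beta subunit tails, was at 17.4, 16.1 and 17.4 FPKM in control libraries and 22.9, 21.3 and 22.8 FPKM in the knockdown. The groups did not overlap (limma log2 fold change 0.38, SE 0.0475, adjusted p = 0.0026). ACTN1, an alpha-actinin that crosslinks actin filaments, was at 17.1, 16.9 and 18.0 FPKM in control libraries and 20.2, 20.5 and 21.6 FPKM in the knockdown (limma log2 fold change 0.25, SE 0.0423, adjusted p = 0.00705). Its relative ACTN4 was more abundant and stayed in the control range, at 168, 153 and 165 FPKM against 162, 160 and 163 FPKM (log2 fold change 0.00, 95% interval -0.09 to 0.10, limma adjusted p = 0.983). The ratio of ACTN4 to ACTN1 was 9.08 to 9.84 in the controls and 7.56 to 8.04 in the knockdown.

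FLNA, a filamin that binds beta subunit tails and actin, was the most abundant of all 48 transcripts. It was at 357, 352 and 376 FPKM in control libraries and 416.5, 398 and 434 FPKM in the knockdown (limma log2 fold change 0.20, SE 0.0445, adjusted p = 0.0186). VCL (vinculin), which binds talin under tension, was at 29.4, 28.7 and 31.7 FPKM in control libraries and 34.7, 33.8 and 34.9 FPKM in the knockdown (limma log2 fold change 0.20, SE 0.0438, adjusted p = 0.0177). Both genes were higher in all knockdown libraries than in any control, by little. Neither call held for every library left out. FLNA did not pass without control replicate 1 or 2 (adjusted p = 0.0602 and 0.0525) or knockdown replicate 1 or 3 (0.0567 and 0.0645), nor VCL without control replicate 1 (0.0573) or knockdown replicate 1 or 3 (0.0588 and 0.0658). FLNA also did not pass with no filter (limma adjusted p = 0.0877). The tensins TNS1 and TNS4 were at or below 0.0481 and 0.879 FPKM and were not tested.

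**Figure D4:**
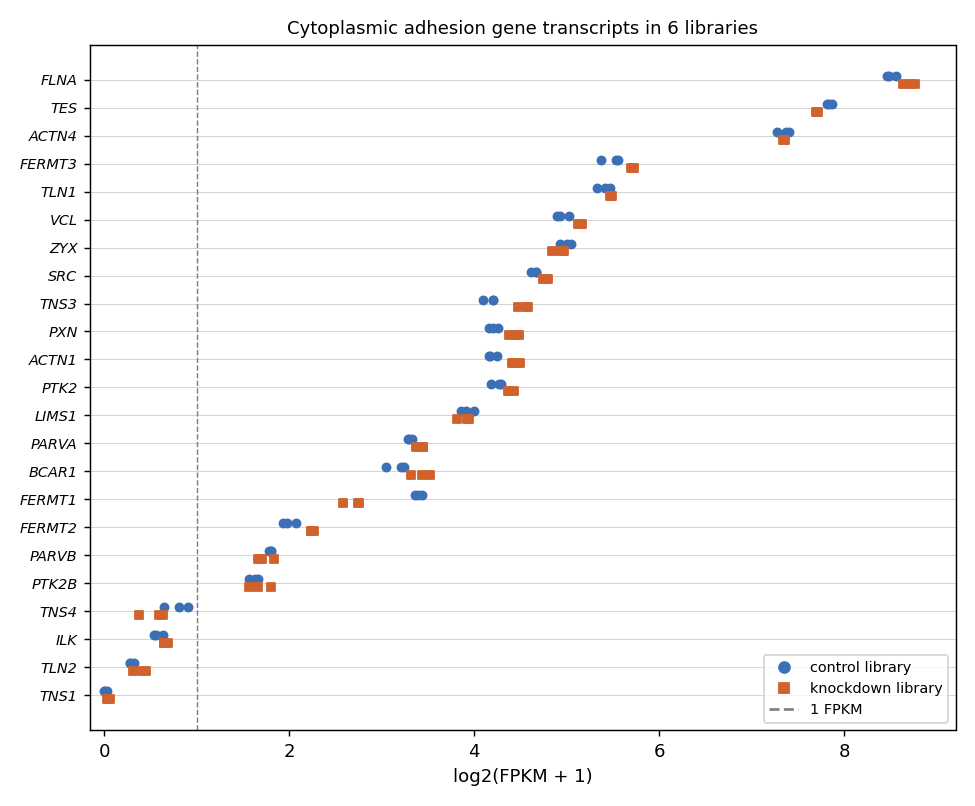
Log2(FPKM + 1) of the 23 talin, kindlin, adaptor, kinase and actin linker genes, ordered by mean level, with 1 point per library and a dashed line at 1 FPKM. FLNA, TES and ACTN4 lie highest, and FERMT1 shows the widest gap between control and knockdown libraries.

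Scaffold proteins split. PXN (paxillin), the docking protein at the base of focal adhesions, was at 18.1, 17.4 and 16.9 FPKM in control libraries and 21.3, 20.9 and 19.7 FPKM in the knockdown, without overlap (limma log2 fold change 0.23, SE 0.0441, adjusted p = 0.0114). Exons of PXN share 12.4% of their length with antisense genes, and the strand setting is not given in the sources used here. BCAR1 (p130Cas), a substrate of FAK and SRC, was at 8.44, 8.24 and 7.27 FPKM in control libraries and 8.99, 9.84 and 10.5 FPKM in the knockdown (limma log2 fold change 0.26, SE 0.0727, adjusted p = 0.0396). TES (testin), a LIM domain protein that binds zyxin, was the second most abundant member, at 228, 223.5 and 232 FPKM in control libraries and 209.9, 207 and 205 FPKM in the knockdown. It fell by a small amount (limma log2 fold change -0.13, SE 0.03, adjusted p = 0.0192). ZYX (zyxin) had overlapping groups, at 31.2, 29.3 and 32.2 FPKM and 30.3, 27.6 and 29.6 FPKM (95% interval of the log2 fold change -0.20 to 0.04). BCAR1 did not pass without control replicate 1, 2 or 3 (adjusted p = 0.0556, 0.068 and 0.0858) or knockdown replicate 2 or 3 (0.104 and 0.117), nor TES without control replicate 1 (0.0533) or knockdown replicate 2 or 3 (0.07 and 0.0752). Both calls were also lost with no filter, limma without a trend or a replicate block. The limma adjusted p was then 0.111, 0.0538 and 0.0926 for BCAR1 and 0.0645, 0.057 and 0.0588 for TES.

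Of 3 kinases tested 1 rose and 0 fell by limma adjusted p, beside 12.6% and 12.5% of all genes tested. At an unadjusted p under 0.05, 2 were higher and 0 lower. SRC was at 24.4, 24.4 and 23.5 FPKM in control libraries and 26.0, 25.8 and 26.9 FPKM in the knockdown (limma log2 fold change 0.12, SE 0.0347, adjusted p = 0.0457), and the call was lost without any 1 library (adjusted p = 0.0743 to 0.146). The SRC call was also lost with no filter, limma without a trend or a replicate block (limma adjusted p = 0.0691, 0.0885 and 0.114). PTK2 (FAK), the kinase recruited by paxillin and talin, was at 18.2, 18.6 and 17.1 FPKM in control libraries and 19.6, 20.5 and 19.7 FPKM in the knockdown and did not pass (log2 fold change 0.14, 95% interval 0.04 to 0.24, limma adjusted p = 0.0536). Its relative PTK2B was at 1.97 to 2.48 FPKM with overlapping groups. ILK, the pseudokinase that holds the complex of PINCH and parvin, was listed at only 0.452 to 0.615 FPKM. Exons of ILK share 86.4% of their length with other genes in the annotation used, TAF10 among them, and TAF10 was at 0.492 to 0.626 FPKM. How shared reads were counted is not given in the sources used here, so the level of ILK cannot be read from these values. Its partners PARVA (8.76 to 9.88 FPKM), PARVB (2.17 to 2.56 FPKM) and LIMS1 (13.1 to 15 FPKM) were present in every library and 0 of the 3 passed in limma, with log2 fold changes of 0.12, -0.06 and -0.04. At an unadjusted p under 0.05 only PARVA did, which was higher in every knockdown library than in any control.

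Ligands of integrins were read from a list of 42 matrix and cell surface genes, of which 25 were tested. Of these 13 rose (52%) and 3 fell (12%), beside 12.6% and 12.5% of all genes, with a median log2 fold change of 0.34. The list was chosen with earlier results of these data known, so these shares describe it and test nothing. LAMB1, the beta chain of widespread laminins bound by ITGA3 and ITGA6, rose from 59.8 ± 4.7 to 96.7 ± 0.46 FPKM (SD, n = 3 per group; limma adjusted p = 0.000678). TNC, a matrix protein bound by ITGAV and ITGA9 receptors, rose from 0.186 ± 0.09 to 2.12 ± 0.27 FPKM and passed the filter through the knockdown alone (limma adjusted p = 0.000627). TGFB1, whose latent form is a ligand of ITGAV pairs, was at log2 fold change 0.73 (limma adjusted p = 0.000204). VCAM1, a ligand of ITGA4 and ITGA9 pairs, was at 2.01 (limma adjusted p = 0.000331), while both of those alpha subunits were near 0. LAMB2, which lies on chromosome 3, fell from 6.93 ± 0.71 to 3.93 ± 0.15 FPKM (limma adjusted p = 0.00137). FN1, the ligand of ITGA5 and named after its values were seen, was at 1238.5, 993 and 1212.5 FPKM in control libraries and 1413, 1416.5 and 1390.3 FPKM in the knockdown (log2 fold change 0.30, limma adjusted p = 0.0401), and it did not pass without knockdown replicate 1, 2 or 3 (0.0988, 0.104 and 0.0957). The count of higher ligands was 10 to 13 with a library left out. The summed fibroblast, endothelial and leukocyte markers given above were also higher in the knockdown, and their part in these values was not tested.

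Of 13 tested membrane proteins that associate with integrins 7 rose and 1 fell (53.8% and 7.69%, beside 12.6% and 12.5% of all genes), with a median log2 fold change of 0.18. Without control replicate 1 or knockdown replicate 1 or 3 that count of higher genes was 4. The list was likewise chosen with earlier results of these data known, so its shares are a description only. CAV1 (caveolin-1), the membrane coat protein linked to integrin turnover, rose from 878 ± 67 to 1536 ± 101 FPKM, BSG from 80.0 ± 3.9 to 98.8 ± 2.6 FPKM and the tetraspanin CD63 from 142 ± 6.3 to 169 ± 4.0 FPKM (SD, n = 3 per group; limma adjusted p = 0.000841, 0.00408 and 0.00628). SDC4, a syndecan that acts with ITGA5 on fibronectin, fell from 21.8 ± 0.76 to 16.1 ± 0.5 FPKM (limma adjusted p = 0.00114).

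In the lists of proteins further inside the cell the shares that passed were near those of all genes (12.6% higher and 12.5% lower). Of 36 other adhesion adaptors 6 rose (16.7%) and 5 fell (13.9%), with a median log2 fold change of 0.03. The filamin FLNC rose from 5.79 ± 0.32 to 9.24 ± 0.66 FPKM and palladin (PALLD) from 28.7 ± 2.0 to 39.9 ± 1.2 FPKM, while the zyxin relative TRIP6 fell from 33.3 ± 2.4 to 23.3 ± 0.67 FPKM (SD, n = 3 per group; limma adjusted p = 0.00137, 0.00203 and 0.00163). Without control replicate 2 or knockdown replicate 1 or 3 the adaptors numbered 3 higher and 3 lower, without knockdown replicate 2 they numbered 4 and 3, and without control replicate 3 they numbered 8 and 4. Of 28 genes of actin filaments, myosin and their regulators 4 rose (14.3%) and 3 fell (10.7%). The tropomyosin TPM1 rose from 10.6 ± 0.32 to 16.3 ± 0.12 FPKM and RHOA, a small GTPase encoded on chromosome 3, fell from 215 ± 12 to 168 ± 4.1 FPKM (limma adjusted p = 0.000331 and 0.00278). MYL9, a myosin light chain, went from 0.338 ± 0.11 to 1.49 ± 0.24 FPKM and passed the filter through the knockdown alone (limma adjusted p = 0.00312), and RHOB was at a log2 fold change of -0.23 (limma adjusted p = 0.0133, and 0.0523 without knockdown replicate 3). Without control replicate 2 or knockdown replicate 1 or 3 the genes that rose numbered 2, and without knockdown replicate 3 the genes that fell numbered 1.

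Of 15 integrin trafficking genes 1 rose (6.67%) and 2 fell (13.3%), also near the background. The endocytic adaptor DAB2 rose from 13.3 ± 1.4 to 19.7 ± 0.71 FPKM, and the small GTPases RAB5A (19.9 ± 0.88 to 16.7 ± 0.74 FPKM) and RAB4A (8.06 ± 0.32 to 6.76 ± 0.43 FPKM) fell (SD, n = 3 per group; limma adjusted p = 0.00355, 0.0137 and 0.0265). RAB5A also lies on chromosome 3, and neither GTPase passed without knockdown replicate 3 (0.0509 and 0.0826). RAB4A also did not pass without control replicate 2 or 3 (0.0646 and 0.0692) or knockdown replicate 2 (0.0846), and without control replicate 2 or 3 the trafficking genes that rose numbered 2. Of 12 regulators of integrin activation 2 rose (16.7%, beside 12.6% of all genes) and 0 fell (limma adjusted p; at an unadjusted p under 0.05, 4 were higher and 1 lower). The 2 that rose were KANK2, which binds talin, and RAPGEF3, an exchange factor for RAP1 (log2 fold changes 0.20 and 0.28, limma adjusted p = 0.033 and 0.0447). Without knockdown replicate 1, 2 or 3 neither passed, with KANK2 at 0.0955, 0.0728 and 0.0993 and RAPGEF3 at 0.126, 0.106 and 0.106. KANK2 did not pass without control replicate 1 or 3 (0.0704 and 0.0626), nor RAPGEF3 without control replicate 1, 2 or 3 (0.0792, 0.0853 and 0.103).

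**Figure D5:**
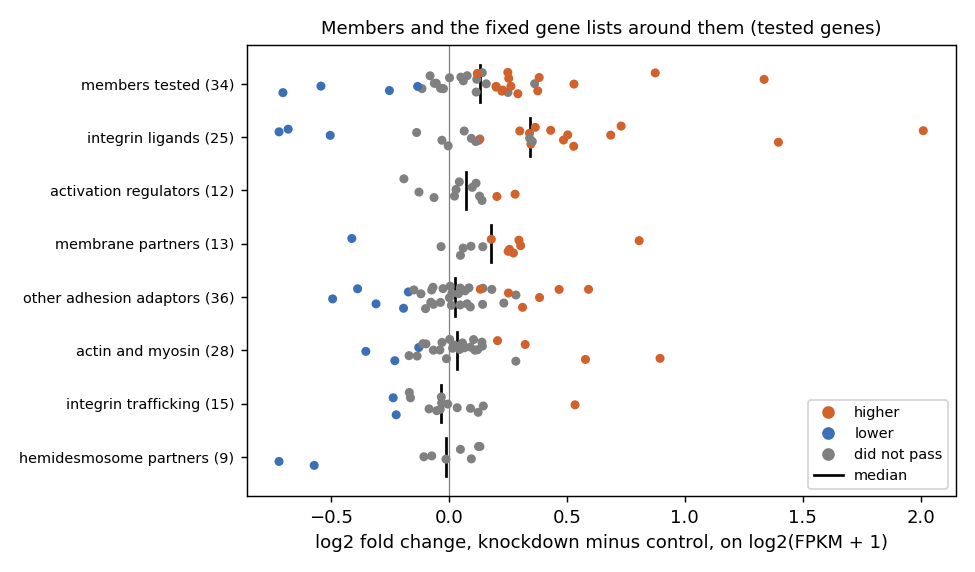
Log2 fold changes (knockdown minus control, on the log2(FPKM + 1) scale) of tested genes, 1 point per gene, for the members and the 7 gene lists around them, with the number tested in brackets and a black bar at the median. Ligands and membrane partners have their medians at 0.34 and 0.18, and those of the other lists lie between -0.03 and 0.07.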

How the data were processed

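RNA of 6 Huh7 libraries, 3 control and 3 SRSF10 knockdown, was extracted with TRIzol and sequenced on an Illumina NovaSeq, per the labels' protocols. The submitters' processing notes name FastQC 0.11.9, Trim Galore 0.6.5-1 and the genome build GRCh38. The sources used here give neither the aligner and counter nor the annotation release and strand setting. FPKM per gene was the unit the authors deposited, and the values of the per-sample files and of the table of all samples were identical.

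Values were analysed as log2(FPKM + 1) with limma 3.58.1 (R 4.3.3), whose variance prior followed mean expression and whose only term was the group. Fold changes on this scale understate the change of low genes. Genes with at least 1 FPKM in at least 3 of 6 libraries were tested, p-values were Benjamini-Hochberg adjusted over all 12191 of them, and an adjusted p under 0.05 passed. Error terms are SD over 3 libraries or the SE of the fitted log2 fold change. Groups that do not overlap were not counted over all genes, so a lack of overlap describes these libraries only. The fit was tested on simulated data with known changes. A pair was counted as present where both subunits were at 1 FPKM or more.

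Depth was estimated from the steps of low FPKM values with exon lengths of GENCODE 29, which also gave gene positions and exon overlaps. Of values up to 6.5 fragments, 87.9% to 88.4% fell within 0.05 of a whole number, where 10% would do so by chance. Promoter windows came from RefSeq (GRCh38.p14), and 34 of 48 members matched.

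The members and gene lists were chosen with earlier results of these data known. All members were named by role, with values per library for those that passed and for subunits of pairs present. Of each other list up to 4 tested genes with the smallest adjusted p were named, with any gene needed to show the other direction. Some genes that this rule would name are not reported here. Of 207 listed symbols 206 matched a row. Alternatives were no filter or one at 5 FPKM, a pseudocount of 0.1, median-of-ratios scaling, rescaling without mitochondrially encoded genes (27.5% to 29.7% of FPKM), no trend, the replicate block and leaving out each library.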

Additional observations from a re-analysis of the deposited data

How the results depend on the processing

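Of 432 values of single members under the alternatives, 358 kept both their direction and their side of the threshold, and 0 of the 18 members that passed changed direction. With no filter 8 members were higher and 2 lower, and 1132 and 1013 of all genes, where more genes were tested (32280). Limma without a trend gave 13 and 2 members, and the cause was not tested. Leaving out 1 library gave 7 to 13 members higher and 2 to 4 lower, and 986 to 1344 and 975 to 1335 of all genes, with fewer samples in each fit. ITGAE, LIMS1 and ACTN4, which did not pass, had log2 fold changes on both sides of 0. With 1 library left out ITGAE ranged from -0.076 to 0.0058 (above 0 without control replicate 2, at 8.79e-05, or knockdown replicate 2) and LIMS1 from -0.069 to 0.0023 (above 0 without control replicate 3, at 0.0011, or knockdown replicate 3). ACTN4 ranged from -0.037 to 0.028, was below 0 without control replicate 2 (-0.037), knockdown replicate 1 (-6.03e-06) or knockdown replicate 3 (-0.0032), and was -0.0023 with median-of-ratios scaling. The cause was not tested. Pairs present in all libraries numbered 12 at 0.5 FPKM and 7 at 5 FPKM.

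The replicate numbers are shared between the groups and were not found to pair the libraries, with correlations of same-numbered deviations of 0.0156, 0.057 and -0.0715, and not every library correlated best with its own number. With a replicate block 10 members were higher and 2 lower, and 1193 and 1146 of all genes. Of the list genes named, FN1, KANK2, RAPGEF3 and RAB4A did not pass with a replicate block, nor with no filter. Leaving out libraries for the pair count, and all settings for the gene lists, were chosen after seeing the data.

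Depth limits the low members: ITGB3 rests on 21 to 112 estimated fragments per library and ILK on 20 to 30.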
